A study of Drosophila melanogaster with 4 samples.

Results

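The regions described here are sites in the chromatin of S2-DRSC cells at which a single FSH peak covered more than 1 ASH1 peak. They were chosen by the deposited peak positions alone: an FSH peak is a member if it shares at least 1 bp with each of 2 or more ASH1 peaks, and its ASH1 peaks belong to it. All sequences except the mitochondrial genome were searched, and 757 of 8822 FSH peaks (8.58%) met the rule, together with 1656 of 10746 ASH1 peaks. S2-DRSC is a line of cultured Drosophila melanogaster cells of embryonic origin, which received no treatment. Cross-linked chromatin was precipitated with 2 antibodies against FSH and 2 antibodies against ASH1, giving 4 ChIP-seq libraries, and all precipitations used the same batch of chromatin. One FSH library is labelled FSH-S and the other FSH-S and FSH-L, whereas the protocol text describes an antibody for the long isoform alone in place of the first. The ASH1 libraries are labelled ASH1N and ASH1C after their antibodies. Before peaks were called, the authors merged the alignments of both antibodies against each protein, so 1 list per protein was analysed, with no replicate and no spread between libraries. The lists hold no read counts and the depth behind a peak is unknown.

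FSH is a Drosophila protein of the bromodomain and extraterminal (BET) family. Its paired bromodomains attach to acetylated histone tails, and it exists as a short and a long isoform. ASH1 is a histone methyltransferase of the Trithorax group, whose members keep genes such as the homeotic genes active. A peak is a stretch of DNA recovered more often in the precipitate than in input chromatin. The peak caller draws its ends, so 1 broad stretch of signal can be reported as 1 peak for one protein and as several for the other.

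Each peak has 1 score in the lists. The lowest score was 50.02 for FSH and for ASH1, next to 50, which is what the authors' P value cut-off of 1e-05 gives on a scale of -10 log10 P. The scores were taken to be on that scale, with P for enrichment over input. A score of exactly 3100 was held by many peaks in both lists and only 66 FSH and 110 ASH1 peaks were above it, up to 3233.06. Peaks at 3100 or more are counted together below and called top-scoring. In the full lists 18.5% of the FSH peaks and 19.3% of the ASH1 peaks were top-scoring. Because the members were defined from the same peak calls that carry the lengths and scores, all differences below are descriptions and no test was made. Intervals in brackets are 95% Wilson intervals for shares. They include only the counting error, as if each peak were independent of the others.

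Most members covered a pair of ASH1 peaks. Of the 757 FSH peaks, 638 (84.3%) overlapped 2 ASH1 peaks, 87 (11.5%) overlapped 3, 28 (3.70%) overlapped 4 and 4 (0.528%) overlapped 5. By comparison, 7390 FSH peaks overlapped a single ASH1 peak and 675 overlapped none. Since 13 ASH1 peaks lay across 2 members each, the 1656 ASH1 peaks formed 1669 overlaps with members.

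Members were long. Their median length was 2618 bp (quartiles 1832 and 3973 bp), against 983 bp (703 and 1461 bp) for FSH peaks with 1 ASH1 peak and 596 bp for those with none. Length went along with the number of ASH1 peaks, as the rule makes likely, with medians of 5568 bp for 4, 4436 bp for 3 and 2343 bp for 2 ASH1 peaks. The shortest member was 522 bp and the longest 24359 bp. Together the members covered 2.40 Mb of the 12.1 Mb in the FSH list.

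Members also had high FSH scores. Top-scoring FSH peaks made up 54.3% of the members (50.7% to 57.8%), against 16.3% of the FSH peaks with 1 ASH1 peak (15.5% to 17.2%) and 2.22% of those with none (1.35% to 3.63%). The median FSH score was at 3100 in members, against 691 with 1 ASH1 peak and 152 with none. Within the members the share was 93.8% with 4 or 5 ASH1 peaks (79.9% to 98.3%), 83.9% with 3 (74.8% to 90.2%) and 48.3% with 2 (44.4% to 52.2%). Only 20 members (2.64%) had an FSH score below 100, against 652 FSH peaks with 1 ASH1 peak (8.82%). These 20 had a median length of 810 bp and 17 of them were below 2000 bp, but 1 was the second longest member, described below.

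**Figure D1:**
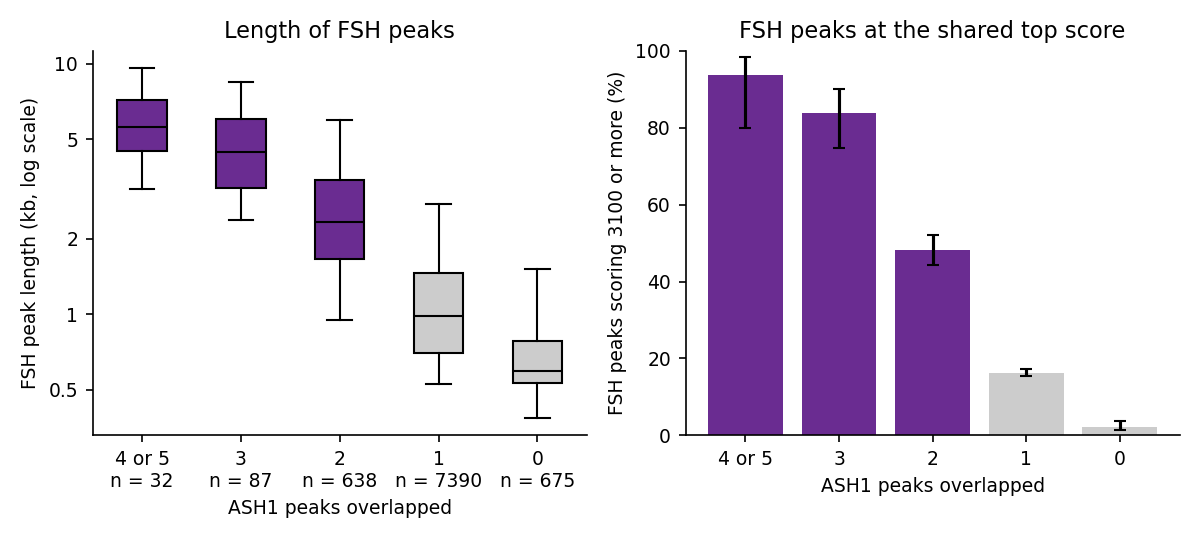
Left, length of FSH peaks in kb on a log scale by the number of ASH1 peaks they overlap. Boxes show quartiles and median, and whiskers the 5th and 95th percentiles. Right, share of FSH peaks scoring 3100 or more, with 95% Wilson intervals. Members are purple and FSH peaks with 1 or 0 ASH1 peaks grey. The median length is 5568 bp with 4 or 5 ASH1 peaks and 983 bp with 1, and the share at 3100 or more is 93.8% and 16.3%.

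The ASH1 peaks of members did not share this. They had a median score of 844, against 1273 for ASH1 peaks that belonged to an FSH peak with 1 ASH1 peak, and 282 of 1656 were top-scoring (15.3% to 18.9%), against 24.8% (23.8% to 25.8%). Their median length of 1032 bp was slightly above the 920 bp of the others. Hence, FSH peaks of members scored higher than the remaining shared FSH peaks, while their individual ASH1 peaks scored lower than the ASH1 peaks of those. The median over all ASH1 peaks was 844 as well, in a list that includes 1933 ASH1 peaks without FSH with a median of 147.

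Since length and score go together, FSH peaks of similar length were compared. In the class from 2000 to 2999 bp, 51.4% of 208 members were top-scoring for FSH (44.7% to 58.1%), against 48.2% of 556 FSH peaks with 1 ASH1 peak (44.1% to 52.4%), and these intervals overlapped widely. From 3000 to 4999 bp the shares were 81.7% of 197 members (75.7% to 86.5%) against 70.3% of 222 (64.0% to 75.9%), with intervals that only just overlapped. At 5000 bp or more they were 91.9% of 111 members (85.3% to 95.7%) against 80.3% of 66 (69.2% to 88.1%), and from 1500 to 1999 bp 28.1% of 121 (20.9% to 36.7%) against 21.7% of 900 (19.1% to 24.5%). From 1000 to 1499 bp they were 8.43% of 83 (4.15% to 16.4%) against 12.4% of 1864 (11.0% to 14.0%). Below 1000 bp, 0 of 37 members were top-scoring (0% to 9.41%), against 7.99% of 3782 (7.16% to 8.89%). Thus the share was higher in members in the 4 classes from 1500 bp and lower in the 2 classes below, and in each class the difference was smaller than over all lengths.

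For ASH1 the comparison at similar FSH length went the other way in most classes. In FSH peaks of 2000 to 2999 bp, the highest ASH1 score of a member had a median of 1784, against 2652 for the ASH1 peak of FSH peaks that had only 1. From 1000 to 1499 bp the medians were 797 for members and 1685 for the others, and from 3000 to 4999 bp they were 2403 for members and 3100 for the others. Below 1000 bp members had the higher value, with 1121 against 767. At 5000 bp or more both medians were at 3100, where scores have no order. The best ASH1 peak of members thus scored lower in the 4 classes from 1000 to 4999 bp. The classes match the length of the FSH peaks and not that of the ASH1 peaks. By the rule, the ASH1 signal of a member is divided among several peaks, whereas the others have a single ASH1 peak. How much of the difference follows from this was not tested.

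**Figure D2:**
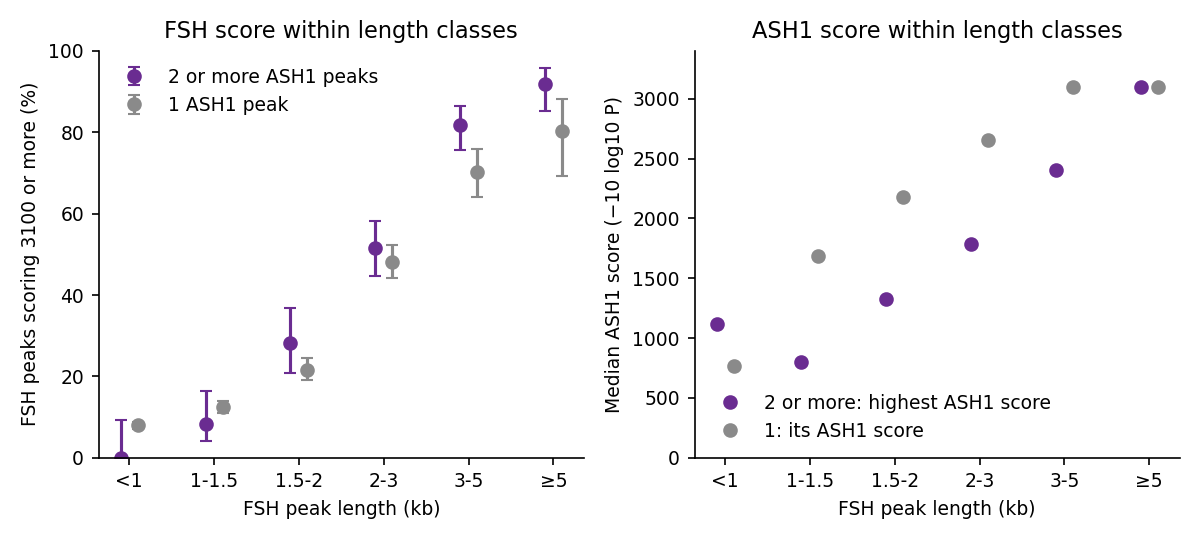
FSH peaks grouped by length in kb, with members (2 or more ASH1 peaks) in purple and FSH peaks with 1 ASH1 peak in grey. Left, share of FSH peaks scoring 3100 or more with 95% Wilson intervals. Right, median of the highest ASH1 score in members and of the only ASH1 score in the others. FSH shares of both groups lie close together at 2 to 3 kb (51.4% and 48.2%), whereas the ASH1 median is 1784 in members and 2652 in the others.

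The share of FSH peaks that were members depended strongly on FSH length. It was 0.839% of 4410 FSH peaks below 1000 bp, 26.9% of 774 from 2000 to 2999 bp, 46.4% of 425 from 3000 to 4999 bp and 61.0% of 182 at 5000 bp or more (53.7% to 67.8%). Even in the longest class, 66 FSH peaks had 1 ASH1 peak. There the median FSH peak was covered by ASH1 over 91.4% of its length in members and over 98.0% in those with 1 ASH1 peak.

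The ASH1 peaks inside a member lay very close together. The members held 912 gaps between neighbouring ASH1 peaks, with a median of 87.5 bp (quartiles 37 and 216 bp) and a minimum of 1 bp. Of these gaps, 219 (24.0%) were shorter than a sequencing read of 36 bp, 498 (54.6%) were below 100 bp and 669 (73.4%) were below 200 bp. The labels give 200 to 400 bp as the average size of the sonicated chromatin, so 532 members (70.3%) contained no gap as long as the lower of these sizes, and 113 (14.9%) contained a gap of 400 bp or more. The centres of neighbouring ASH1 peaks were separated by a median of 1347 bp (quartiles 954 and 1914 bp). What divides the ASH1 peaks in most members is therefore short compared to the chromatin fragments, and whether it reflects separate binding sites was not tested.

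Gaps took up little of the members. Of the 2398 kb in member FSH peaks, 84.9% was covered by ASH1 peaks, 7.81% lay in gaps between them and 7.25% lay beyond the outermost ASH1 peak. In the median member, ASH1 covered 89.2% of the FSH peak (quartiles 79.4% and 95.2%), against 92.6% for FSH peaks with 1 ASH1 peak.

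The ends of the peaks did not coincide in most members. In 282 members (37.3%) the FSH peak contained all of its ASH1 peaks, in 345 (45.6%) an ASH1 peak reached past 1 end, and in 130 (17.2%) ASH1 peaks reached past both ends. The lower coordinate end was passed alone in 171 members and the higher one alone in 174. Of the 1669 overlaps, 1064 (63.8%) placed the ASH1 peak wholly inside the FSH peak, and 1535 (92.0%) placed at least 50% of it there.

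Joining by one FSH peak was examined from the side of ASH1, using all neighbouring ASH1 peaks on a chromosome. Where the gap was 1 to 25 bp, 168 of 217 pairs (77.4%, interval 71.4% to 82.5%) lay under one FSH peak. The share was 59.8% for gaps of 51 to 100 bp (54.5% to 64.9%), 39.3% for 101 to 200 bp (34.8% to 43.9%), 17.6% for 301 to 500 bp (14.2% to 21.6%) and 4.32% for 751 to 1000 bp (2.64% to 7.01%). For gaps of 1501 to 2000 bp it was 0.537%, with 3 of 559 pairs. A longer gap needs a longer FSH peak, so a decline is built into the geometry. How the share changed with the gap is the measurement.

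**Figure D3:**
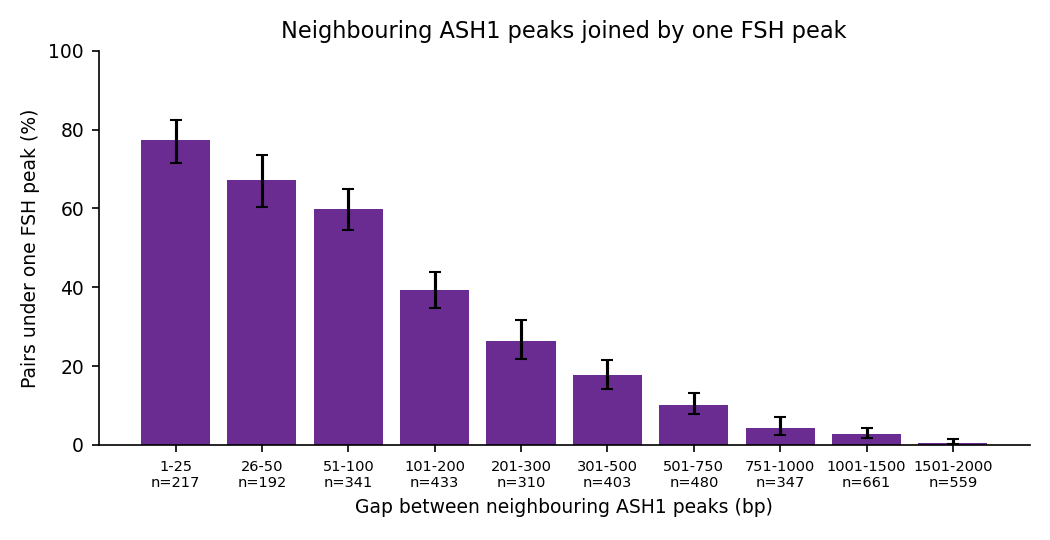
Share of neighbouring ASH1 peaks that lie under one FSH peak, by the gap between them in bp, with the number of pairs (n) and 95% Wilson intervals. The share is 77.4% for gaps of 1 to 25 bp and 4.32% for gaps of 751 to 1000 bp.

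Not every close pair of ASH1 peaks was joined. Among 2723 neighbouring pairs with a gap of at most 1 kb, 888 (32.6%) lay under one FSH peak, 1198 (44.0%) lay under separate FSH peaks, 543 (19.9%) had FSH at one of the peaks only and 94 (3.45%) had none. The joined pairs had a median gap of 84 bp, against 417 bp for pairs under separate FSH peaks, whose FSH peaks were in turn a median of 345 bp apart. The weaker ASH1 peak of joined pairs had a median score of 338, against 426 for pairs under separate FSH peaks, 129 where FSH was found at one of the peaks and 102 where it was at neither. Even among the 750 pairs at most 100 bp apart, 151 (20.1%) lay under separate FSH peaks.

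Within a member the ASH1 peaks were unequal, as the highest and the lowest of several values tend to be. Neighbouring ASH1 peaks at most 1 kb apart under separate FSH peaks were unequal too. Their stronger and weaker peaks had median scores of 2037 and 426, against 1715 and 338 for pairs under one FSH peak. The highest ASH1 score of a member had a median of 1942 (quartiles 909 and 3100) and the lowest a median of 297 (114 and 757). The difference between the highest and the lowest had a median of 1090 (422 and 2282). In 261 members (34.5%) the highest ASH1 score was top-scoring, where scores have no order, so the size of their differences is uncertain. In 157 members (20.7%) the lowest ASH1 score was below 100, near the cut-off. Counted singly, 10.2% of the ASH1 peaks of members and 10.8% of all ASH1 peaks scored below 100. The lowest of 2 or more peaks is more likely to fall there than a single peak. Conversely, 630 members (83.2%) had at least 2 ASH1 peaks with scores of 100 or more, 185 (24.4%) had at least 2 with scores of 1000 or more, and 21 (2.77%) had at least 2 that were top-scoring.

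In the 638 members with 2 ASH1 peaks, the higher score was at the lower coordinate in 312, at the higher coordinate in 312, and 14 were tied. Peaks carry no strand, so these counts say nothing of the direction of genes. The higher-scoring ASH1 peak was the longer one in 448 of 624 members without a tie (71.8%), with median lengths of 1225 bp for the higher-scoring and 824 bp for the lower-scoring peak. The middle of the gap was at a median of 38.1% of the FSH length from the nearer end (quartiles 27.9% and 44.2%). The gap thus usually lay nearer to the centre of the FSH peak than to either end. Spearman's rho between the higher and the lower score was 0.45 across these 638 members, which share libraries and background. The higher score is never below the lower, so a positive value is built in. It does not show whether the scores of paired ASH1 peaks go together.

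**Figure D4:**
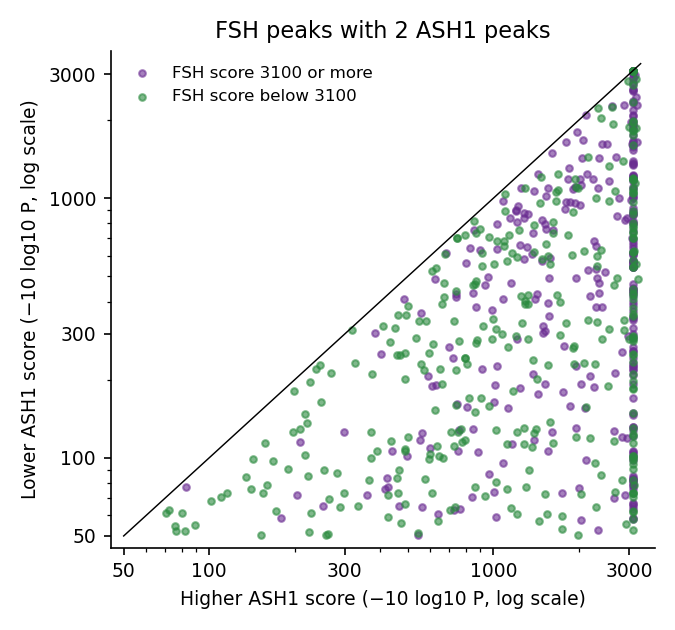
Lower (vertical axis) against higher (horizontal axis) ASH1 score in the 638 FSH peaks with 2 ASH1 peaks, both as -10 log10 P on log scales. Purple points have an FSH score of 3100 or more, green points a lower one, and the line marks equal scores. Points fill the area below the line, and the vertical band is at 3100.

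With 3 ASH1 peaks, the highest score was in the middle in 31 of 87 members, at the higher coordinate end in 31 and at the lower in 19, with 6 ties. The lower coordinate end thus had the lowest count, and whether the positions differ was not tested.

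Top scores of both proteins coincided in a minority of members. In 175 members (23.1%) both the FSH peak and an ASH1 peak were top-scoring, in 236 (31.2%) FSH alone, in 86 (11.4%) ASH1 alone and in 260 (34.3%) neither. For FSH peaks with 1 ASH1 peak the shares were 7.56% for both, 8.74% for FSH alone, 17.6% for ASH1 alone and 66.1% for neither. Top-scoring FSH without top-scoring ASH1 was thus more frequent than the reverse in members, and less frequent than the reverse in FSH peaks with 1 ASH1 peak. Lengths were not matched here. The rule selects long FSH peaks whose ASH1 signal is divided, and how much of the contrast follows from this was not tested.

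The width of the widest gap divided the members further. It was below 50 bp in 215 members (28.4%), from 50 to below 200 bp in 317 (41.9%), from 200 to below 500 bp in 140 (18.5%) and 500 bp or more in 85 (11.2%). The share with a top-scoring FSH peak was 46.0% in the first of these classes and 75.3% in the last, and the median FSH length was 2214 bp and 3742 bp. The lowest ASH1 score showed no such course, with medians of 302, 301, 316 and 252 in order of gap width. At least 2 ASH1 peaks with scores of 1000 or more were present in 21.9% of the members with gaps below 50 bp and in 27.1% of those with a gap of 500 bp or more. A gap of 1000 bp or more was found in 24 members, and the FSH peak was top-scoring in 19 of them.

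Single members illustrate these numbers. Positions refer to BDGP Release 5, and genes are not named because an annotation of that release was not used here. The 4 members with 5 ASH1 peaks each were all top-scoring for FSH, with a score of 3100.

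The longest of them was at chr3R:25105716-25118927 and spanned 13.2 kb. Its ASH1 peaks had scores of 99.3, 425, 675, 712 and 2554 in order of position, and its widest gap was 1053 bp. The score thus increased along the region with the coordinate. At chr3R:16369399-16378320 (8.92 kb) the ASH1 scores were 846, 897, 2039, 374 and 3100, and no gap was wider than 163 bp. Here the ASH1 peaks covered 93.1% of the FSH peak and lay wholly inside it.

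At chr3R:3011017-3016449 (5.43 kb) the strongest ASH1 peak came first, with scores of 3100, 450, 611, 1340 and 118, and the last ASH1 peak ran past the FSH end. At chr3L:16796979-16801878 (4.90 kb) the ASH1 scores were 134, 1593, 777, 553 and 3100. In both regions 1 of 5 ASH1 peaks was at 3100, and the lowest score was at the opposite end. All 4 regions had their highest ASH1 score at 1 end of the array.

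Next in the number of ASH1 peaks was the longest member with 4 ASH1 peaks, at chr3R:6206253-6221933. Its FSH peak was 15.7 kb long but had a score of 62.7, close to the cut-off. In contrast, its ASH1 peaks scored 524, 1628, 1069 and 3100 and covered 91.8% of it. FSH and ASH1 scores were thus far apart over the same DNA.

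The widest gap was at chrX:12554911-12579269, which was also the longest member with 24.4 kb. There, 2 ASH1 peaks with scores of 926 and 871 lay at one end and another with 2674 at the other, 18648 bp apart, under an FSH peak scoring 165. ASH1 covered 21.5% of this FSH peak. Only 3 of the 111 members of 5 kb or more had an FSH score below 1000, namely these last 2 regions and chrX:13204521-13210080 (score 379, 4 ASH1 peaks). The one at chrX:13204521-13210080 was singled out after its values were seen. The remaining members of that length were top-scoring in all but 6 cases, with 102 of 111 (91.9%) at 3100 or more.

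Next in gap width were chrX:13193957-13204182 and chr3R:7057314-7061598. The first spanned 10.2 kb with an FSH score of 3100, although its 3 ASH1 peaks scored only 403, 99.7 and 838 and its widest gap was 2444 bp. The second had an FSH score of 3128 over 4.29 kb and 2 ASH1 peaks scoring 494 and 1950, which were 2406 bp apart and covered 36.8% of it. In these regions a top-scoring FSH peak included a stretch of more than 2 kb without an ASH1 peak. The score belongs to the whole FSH peak, so the FSH signal within the gap is not known.

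**Figure D5:**
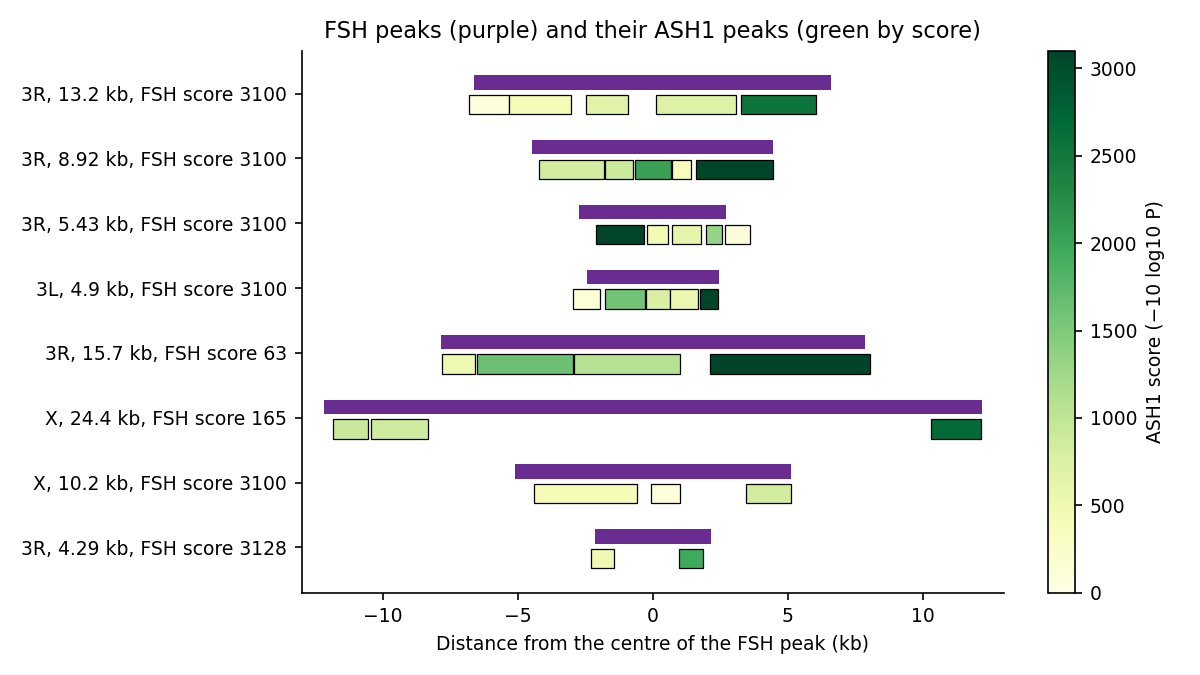
Maps of 8 members, namely the 5 with most ASH1 peaks (top) and the 3 with the widest gap (bottom), as distance in kb from the centre of the FSH peak. Purple bars are FSH peaks and boxes ASH1 peaks, with darker green for higher ASH1 scores up to 3100. The chromosome, FSH length and FSH score stand at the left. In the fifth and sixth rows the FSH scores are 62.7 and 165, while the highest ASH1 scores are 3100 and 2674.

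The shortest members were of another kind. At chr2L:1702832-1703353 (522 bp) the FSH score was 58.1 and the ASH1 scores were 55.2 and 88.9, so all 3 peaks were near the cut-off. At chr3L:21825076-21825608 (533 bp) a weak FSH peak with a score of 52.6 met ASH1 peaks of 769 and 3100. At chrX:15784347-15784880 (534 bp) the FSH score was 399 and the ASH1 scores 1447 and 2157. In these 3 regions the gap between the ASH1 peaks was 46, 9 and 21 bp.

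The median span of the 21 members with at least 2 top-scoring ASH1 peaks was 4554 bp, and FSH was top-scoring in 16 of them, with a lowest FSH score of 2098. In 12 of the 21 the widest gap was 100 bp or more, while 388 of all 757 members (51.3%) had only gaps below 100 bp. In members with more than 2 ASH1 peaks, the widest gap need not lie between the top-scoring ones. Examples, chosen after the values were seen, are chr3R:5335340-5339752 with an FSH score of 3100 and a gap of 500 bp, chr4:1050649-1052910 with an FSH score of 3100 and a gap of 192 bp, and chr2L:418559-422141 with an FSH score of 2098 and a gap of 544 bp.

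Members occurred on all large chromosomes in similar proportion. Of the FSH peaks on the X chromosome, 10.7% were members (158 of 1482, interval 9.19% to 12.3%), against 8.51% on the autosomal arms together (583 of 6850, 7.87% to 9.20%). These intervals touched. The single arms ranged between 7.67% on 2R and 9.32% on 3L. On chromosome 4, 8 of 106 FSH peaks (7.55%, 3.87% to 14.2%) were members. Heterochromatic sequences contributed 7 of 124 FSH peaks (5.65%, 2.76% to 11.2%), and sequences without a placement 1 of 260 (0.385%, 0.0679% to 2.15%), below the interval of the autosomal arms. There were 0.839 ASH1 peaks per FSH peak on heterochromatic and 0.912 on unplaced sequences, against 1.23 on the autosomal arms. FSH peaks with 1 ASH1 peak had a median length of 669 bp on unplaced sequences and 1036 bp on the autosomal arms. Whether this accounts for the low share was not tested.

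The X chromosome differed mainly in its FSH peaks with 1 ASH1 peak. There, 55.1% of the members were top-scoring for FSH, against 53.9% of members on the autosomal arms. For FSH peaks with 1 ASH1 peak the shares were 9.71% on X and 17.2% on the autosomal arms, and the median lengths 817 bp and 1036 bp. The median length of members was 2504 bp on X and 2712 bp on the autosomal arms.

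The surroundings of members were also more densely occupied. The rule itself selects stretches where called peaks lie close together, and how much of the difference follows from this was not tested. The nearest other FSH peak was a median of 965 bp away from members and 2013 bp away from FSH peaks with 1 ASH1 peak. Another FSH peak lay within 1 kb of 51.1% of the members (47.6% to 54.7%), against 34.0% of the others (33.0% to 35.1%). An ASH1 peak that did not overlap the FSH peak was found within 1 kb of 43.3% of the members (39.8% to 46.9%), against 32.9% of the others (31.9% to 34.0%). Some members were linked to a further FSH peak through a shared ASH1 peak, namely 111 of 757 (14.7%). This share was not computed for FSH peaks with 1 ASH1 peak, which have fewer ASH1 peaks through which to be linked.

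The reverse arrangement, an ASH1 peak over several FSH peaks, was rarer. It was found for 239 ASH1 peaks, or 2.22% of that list, against 8.58% for members. The ASH1 list held more and shorter peaks than the FSH list (10746 against 8822, median lengths 853 and 1000 bp). Whether this accounts for the difference was not tested. These ASH1 peaks were a median of 1857 bp long, against 2618 bp for the FSH peaks of members, and 33.5% of them were top-scoring. The gaps between FSH peaks under them had a median of 67.5 bp, and 64.6% were below 100 bp, against 87.5 bp and 54.6% for the gaps between ASH1 peaks in members. Short gaps were therefore found in both arrangements.

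Near the limit of the rule the choice of members rested on few bases. The least overlap of a member with any of its ASH1 peaks had a median of 653 bp, but it was below 10 bp in 12 members and below 100 bp in 75 (9.91%). Just inside, chr3R:4882045-4883252 (FSH score 747) shared 1 bp with its second ASH1 peak and chr2L:20799026-20801759 (FSH score 2857) shared 2 bp. Just outside, chr3R:16978472-16979398 (FSH score 876) and chr3R:21473376-21474049 (FSH score 457) overlapped 1 ASH1 peak, and the next ASH1 peak began or ended 1 bp beyond them. Of the FSH peaks with 1 ASH1 peak, 14 had another less than 10 bp and 400 (5.41%) less than 100 bp beyond an end.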

How the data were processed

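ChIP-seq reads of 36 bp from 4 libraries were aligned by the authors to BDGP Release 5 with Bowtie 0.12.7, merged per protein with SAMtools 0.1.9 and compared with input chromatin by MACS 1.4.0, which kept peaks with P below 1e-05 (versions from the submitters' processing notes). The 2 deposited peak lists give positions and 1 peak score, which the authors' caller computed and which is read here as -10 log10 P. Pooling hides differences between antibodies, and the depth per peak is unknown.

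From these lists, overlaps of at least 1 bp were counted with Python 3.11.15, numpy 2.4.6, pandas 2.3.3 and scipy 1.17.1, and figures drawn with matplotlib 3.10.9. Counts for 8822 of 8822 FSH peaks were equal to those of BEDTools 2.31.1, and the calculation was tested on simulated lists. Printed starts count from 1. The regions and all comparisons were chosen with earlier results of these data known. Regions named with position are the 5 members with most ASH1 peaks, the 3 with the widest gap, the 3 shortest and the 3 longest, on X, 2L, 3L, 3R and 4. Regions named at the limit of the rule and those said to be chosen after their values were seen are exceptions. Mitochondrial peaks were left out by the rule. A RefSeq gene table of another release was not used, and no sequence is printed. Alternatives were other overlaps, score thresholds, joined ASH1 peaks and the euchromatic arms only.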

Additional observations from a re-analysis of the deposited data

How the results depend on the processing

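The number of members depended on whether close ASH1 peaks were joined and on the score threshold. With ASH1 peaks joined across gaps of up to 100 bp, 366 members (4.15% of FSH peaks) with 775 ASH1 peaks were left, their median length was 3114 bp and the median gap 236 bp. With gaps of up to 300 bp joined, these values were 148 members, 1.68%, 306 ASH1 peaks, 3641 bp and 544 bp. Joining removes short gaps by construction. Keeping peaks with at least the median score of their list left 203 members (4.60%) with 426 ASH1 peaks and a median length of 4050 bp. A minimum overlap of 100 bp gave a share of 7.80% and a median length of 2782 bp. When at least 50% of each ASH1 peak had to lie in the FSH peak, the share was 7.31%, the median length 2846 bp, the share of top-scoring members 60.5% and the share of close ASH1 pairs under one FSH peak 28.0%. With scores of at least 100 in both lists, the share was 7.79%, the median length 2840 bp and the share of top-scoring members 59.3%. Of 44 values computed under alternatives, the other 21 stayed within the margin set for their kind. Counts were allowed a wider margin than shares, so 688, 645 and 617 members under the 100 bp, 50% and score of 100 settings are among these 21, against 757. All values for the euchromatic arms alone (741 members) are among them too.

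No paired analysis was possible because each list pools both antibodies of a protein. For the same reason no replicate was left out. Whether a gap between ASH1 peaks is present in each ASH1 library was not tested.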

Other observations

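Members also followed each other along the chromosomes. The next FSH peak at higher coordinates was itself a member for 100 of 757 members (13.2%, Wilson interval 11.0% to 15.8%), against 617 of 7381 FSH peaks with 1 ASH1 peak (8.36%, 7.75% to 9.01%). The rule itself favours this where 1 ASH1 peak lies across 2 members, as 13 did. Members also lay in more densely occupied stretches. How much of the difference follows from either was not tested. Neighbouring members formed 84 runs with 184 members in all, of which 69 runs held 2 members, 14 held 3 and 1 held 4. The number of runs to be expected without clustering was not computed. In windows of 1 Mb on the euchromatic arms the median was 6 members. The window with most members was at 13 to 14 Mb on the X chromosome, where 21 of 111 FSH peaks were members, and it also holds the 10.2 kb member described above with an FSH score of 3100 and the long member with a score of 379. On the arms, 3 of 121 windows with FSH peaks had no member.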
